A study of Homo sapiens with 4 samples.

Results

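The genes described here are 35 enzymes, regulators and transporters of cholesterol and fatty acid synthesis, picked out by gene symbol. The list was drawn up with earlier results of these data known. All 35 were found among the 35979 symbols of the tables, and 34 passed the expression minimum, a mean normalized count of at least 20 over the 4 libraries, which left 14940 genes in all. ABCA1 did not. The libraries were poly(A) RNA-seq of NCI-H1048, a human cell line from a small cell lung cancer, of the tuft cell-like type, whose cells had received a guide RNA (gRNA). The COLCA2 group (labelled COLCA2 knockout) held 2 libraries made with different guides, gRNA 1 and gRNA 2, the POU2F3 group (labelled POU2F3 knockout) held 1 library, and the non-targeting gRNA group (labelled WT), called the control below, held 1 library. POU2F3 is the transcription factor that defines this tumour type, and COLCA2 is named as a transcriptional co-activator in the study's title. The labels list no treatment for any sample. They also do not say whether a library came from a clone or a pool of edited cells, or from separate cultures.

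Cells make cholesterol and fatty acids from acetyl-CoA, and the enzymes of both routes are switched on together by the SREBP transcription factors, the products of SREBF1 and SREBF2. SREBPs are made as membrane proteins of the endoplasmic reticulum. The escort protein SCAP carries them to the Golgi for cleavage when sterols are low, and the INSIG proteins hold SCAP back when sterols are plentiful. INSIG1 is itself an SREBP target, while the exporters ABCA1 and ABCG1 are targets of the sterol-sensing LXR receptors.

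Between 21587741 and 29632382 reads per library were assigned to genes. Targeted transcripts were checked first: POU2F3 had a normalized count of 14602 in the control, 1449 with its own guide, and 3677 and 2351 with COLCA2 gRNA 1 and 2. For COLCA2 the counts were 5585, 1393, 3119 and 3541 in that order. All 7 tuft markers past the minimum (of 8 listed) were lower than non-targeting in the other 3 libraries, their summed level being 46983 in the non-targeting library, 10177 in the POU2F3 library, and 15415 and 11505 with COLCA2 gRNA 1 and 2. TRPM5, a tuft cell channel, was near 0 everywhere, with 0.839 to 2.35. The 3 non-neuroendocrine markers YAP1, VIM and CD44 were higher in all 3 libraries, with a summed level of 30442 in the non-targeting library and 49956 to 86763 in the others. Of the 6 neuroendocrine markers 3 passed the minimum, and all 3 were lower in the 3 libraries. Their summed level, over all 6, was 4327 in the non-targeting library and 1856 to 2774 in the others. CHGA was listed at 0 in the non-targeting and COLCA2 gRNA 1 libraries. The part of these marker differences in the values below was not tested.

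Ratios below are log2 ratios to the single non-targeting library on the normalized count + 1 scale. With 1 library in 2 of the 3 groups there is no replicate check of any difference from the control. No p-value of a single gene is given, and the count tests further on compare libraries, not conditions. All ratios share that control, so a change in the 3 edited libraries and a deviation of the non-targeting library cannot be told apart. The spread between the COLCA2 guides is the only measure of error between libraries.

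Most synthesis genes were modestly lower in every edited library. Of the 34 members past the minimum, 26 (76.5%) were below the non-targeting library in all 3 libraries, against 35.3% of all genes tested. Only 5 were above it in all 3, against 34.4% of all genes: INSIG2, CYP51A1, EBP, SC5D and SCD5. The median log2 ratio of the members was -0.29 with each COLCA2 guide, or -0.31 over the means of the guides, and -0.23 in the POU2F3 library. For all genes these medians were -0.0086 and -0.0037. The summed normalized count of the 35 genes was 145013 in the non-targeting library, 110433 and 109320 with COLCA2 gRNA 1 and 2, and 122866 in the POU2F3 library. That corresponded to 76.2%, 75.4% and 84.7% of the non-targeting sum. Without SCD and FASN, the 2 members with the largest counts in the control, it was 82.2%, 82.0% and 89.7%.

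**Figure D1:**
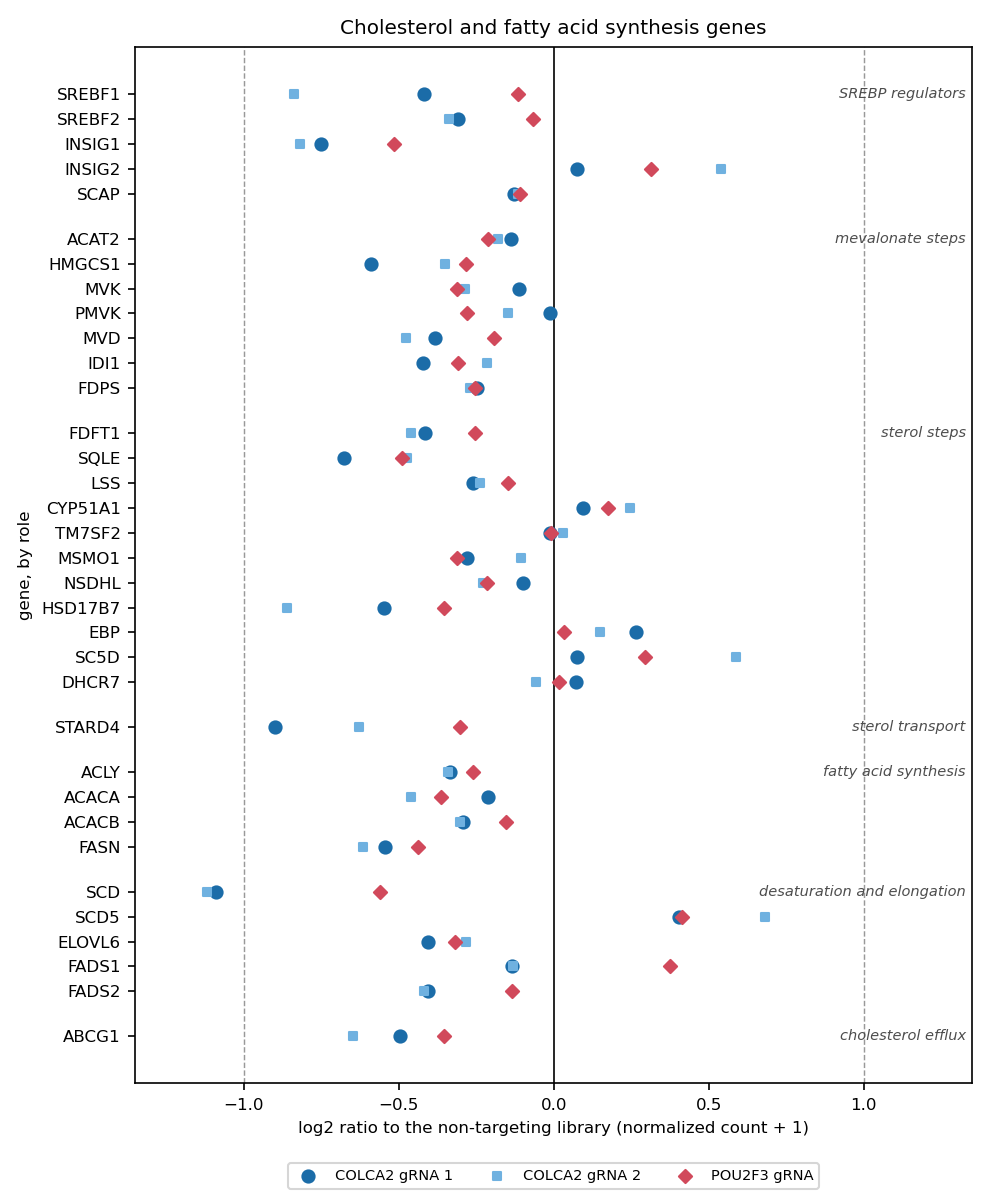
Log2 ratio of normalized counts to the non-targeting library for the 34 members past the minimum, in rows by role; circles and squares are COLCA2 gRNA 1 and 2, diamonds POU2F3 gRNA, and dashed lines mark 2-fold. Of the rows, 26 lie wholly left of 0, SCD alone passes the left line with both COLCA2 guides, and FADS1 has its diamond right of 0 and both COLCA2 marks left of it.

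Differences were small in size. With both COLCA2 guides 1 member, SCD, was at least 2-fold lower and none at least 2-fold higher, against 2.02% and 5.79% of all genes. With POU2F3 gRNA no member was 2-fold lower or higher, against 3.05% and 6.73%. At 1.5-fold, INSIG1, STARD4 and SCD were lower with both COLCA2 guides, 8.82% of members against 6.03% of all genes, and none was higher, against 9.71%. No member reached 1.5-fold in the POU2F3 library, where 7.69% of all genes were lower and 12.2% higher by that measure. So no member met the rule of 1.5-fold in all 3 libraries. SCD and INSIG1 came nearest, at -0.56 and -0.52 in the POU2F3 library beside a 1.5-fold threshold of 0.585 in size. The shares past 2-fold were thus near or below those of all genes.

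Whole reads could be recovered from the normalized counts, which allowed edgeR's quasi-likelihood test on all 14940 genes, adjusted by Benjamini-Hochberg at 0.05. Its 1 residual degree of freedom is the difference between the COLCA2 guides, so it compares libraries, not conditions. For COLCA2 it called 12 members lower, 35.3% of the 34 against 7.51% of all genes: SREBF1, SREBF2, INSIG1, HMGCS1, FDFT1, SQLE, HSD17B7, STARD4, ACLY, FASN, SCD and FADS2. It called 1 member higher, SCD5, or 2.94% against 11.4% of all genes. With POU2F3 gRNA edgeR called INSIG1, FASN and SCD lower, 8.82% against 3.98%, and none higher, against 8.45%. DESeq2 called 10 members lower and 1 higher for COLCA2, where it called 4.18% and 8.33% of all genes, and 2 lower and none higher in the POU2F3 library, against 2.69% and 6.15%. At an unadjusted p under 0.05 edgeR had 9 members lower and 2 higher in the POU2F3 library, against 11% and 15.7% of all genes, and DESeq2 had 7 and 1, against 6.29% and 10.3%. For COLCA2 these counts were 20 and 1 in edgeR, against 14.8% and 17.9%, and 15 and 1 in DESeq2, against 8.46% and 12.9%.

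**Figure D2:**
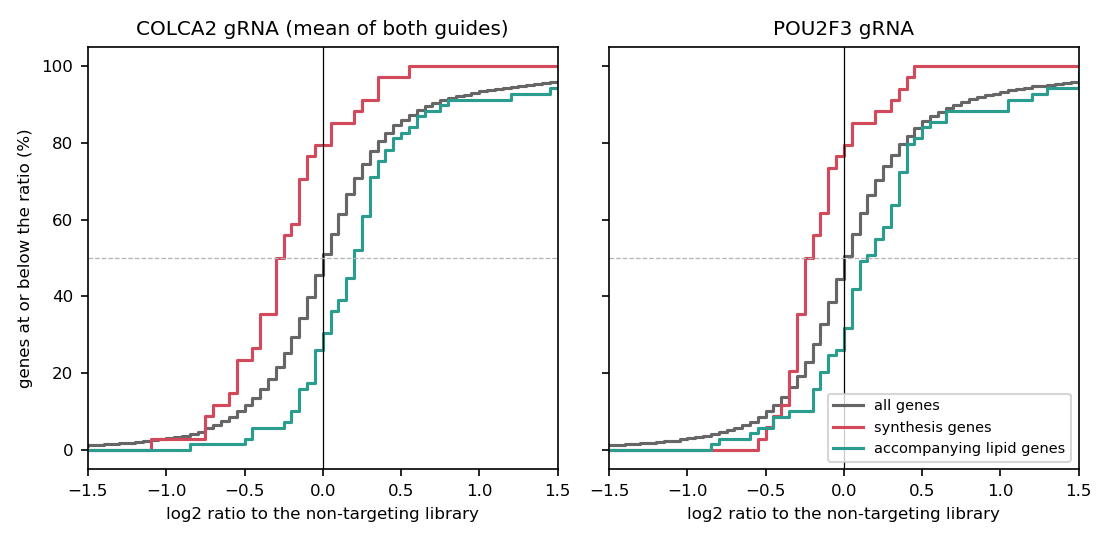
Cumulative share of genes (%) at or below each log2 ratio to the non-targeting library, for all 14940 genes (grey), the 34 synthesis genes (red) and 69 accompanying lipid genes (green), with the mean of the COLCA2 guides on the left and POU2F3 gRNA on the right. Shares are drawn in steps of 0.05, and around 50% the red curve (medians -0.31 and -0.23) lies left of the grey one and the green curve (medians 0.18 and 0.11) right of it.

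Promoters are shown for the members that by the naming rule lay furthest from the control in every library among the paralog pairs. In order these were SCD, INSIG1 and SCD5. SCD and SCD5 lay on opposite sides of the control, and INSIG1 is a direct SREBP target. ABCG1 was next in that order and is not in the promoter table. Each run is the 250 bases before the RefSeq start (GRCh38.p14), on the gene's strand, 5′ to 3′. SCD lies at chr10:100346983-100347232 (plus strand), INSIG1 at chr7:155297628-155297877 (plus) and SCD5 at chr4:82798797-82799046 (minus). Capitals mark the CCAAT box bound by NF-Y (CCAAT), the GC box bound by Sp1 (GGGCGG) and the E-box (CACGTG), each searched on both strands.
SCD: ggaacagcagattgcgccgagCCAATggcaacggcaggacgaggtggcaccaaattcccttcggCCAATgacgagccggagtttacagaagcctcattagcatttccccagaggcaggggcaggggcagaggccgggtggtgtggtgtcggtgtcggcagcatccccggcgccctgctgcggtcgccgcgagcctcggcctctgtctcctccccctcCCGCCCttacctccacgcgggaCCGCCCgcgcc
INSIG1: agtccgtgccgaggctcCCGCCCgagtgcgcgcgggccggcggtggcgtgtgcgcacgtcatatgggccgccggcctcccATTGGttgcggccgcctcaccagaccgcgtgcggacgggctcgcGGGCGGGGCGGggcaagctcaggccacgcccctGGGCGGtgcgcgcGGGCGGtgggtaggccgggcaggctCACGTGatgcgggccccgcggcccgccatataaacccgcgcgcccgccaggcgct
SCD5: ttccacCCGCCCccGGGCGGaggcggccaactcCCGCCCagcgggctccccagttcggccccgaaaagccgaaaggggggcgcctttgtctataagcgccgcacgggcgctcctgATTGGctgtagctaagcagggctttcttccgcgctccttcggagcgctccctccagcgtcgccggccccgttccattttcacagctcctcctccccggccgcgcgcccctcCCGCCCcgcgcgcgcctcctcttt
The SCD promoter held 2 CCAAT boxes, which began 229 and 186 bases before the start, and 2 GC boxes. INSIG1 held 1 CCAAT box beginning at 170, 5 GC boxes, of which 2 overlap by 1 base, and an E-box at 55. SCD5, the member whose level was higher, held the same kinds of element, with 1 CCAAT box at 135 and 4 GC boxes. None of the 3 held the core of the sterol regulatory element (TCACNCCAC) or the octamer (ATGCAAAT), the motif of POU2 factors, in this window. GENCODE release 29 starts SCD at 100347124, INSIG1 at 155297776 and SCD5, on the minus strand, at 82798857. These starts lie inside the windows, so part of each run is annotated as transcribed. That part holds both GC boxes of SCD, further GC boxes of INSIG1 and SCD5, and the E-box of INSIG1, but no CCAAT box.

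The set of RefSeq promoters used here held 41 promoters for 30 of the members. It held none for ACAT2, FDFT1, SQLE, FASN and ABCG1, which were therefore not searched. CCAAT occurred in 25 of the 41 (61.0%), against 32.0% of all 35116 promoters in the table, which include those of noncoding genes. GC boxes occurred in 36 (87.8% against 42.6%) and E-boxes in 5 (12.2% against 6.34%). The sterol regulatory element core and the octamer each occurred in 1 member promoter (2.44%), that of SREBF2, against 0.883% and 1.63% of all promoters. These matches describe letters in a window and do not show binding.

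Among the SREBP regulators, SREBF1 was lower with the COLCA2 guides than in the POU2F3 library. SREBF1, which encodes the factor that mainly drives fatty acid genes, had a normalized count of 4407 in the control, 4064 in the POU2F3 library, and 3298 and 2463 with COLCA2 gRNA 1 and 2. The POU2F3 gRNA library lay close to the control, and the guides lay below both and apart from each other, with a mean log2 ratio of -0.63 ± 0.30 (SD, n = 2). SREBF2, the factor that mainly drives cholesterol genes, had 8668, 8278, 6997 and 6865 in the same order. Its guides were nearly equal, with a mean ratio of -0.32 ± 0.019 (SD, n = 2), beside -0.066 in the POU2F3 library. The count of SREBF1 was 0.508 of that of SREBF2 in the control, 0.491 in the POU2F3 library, 0.471 with gRNA 1 and 0.359 with gRNA 2. SCAP, the escort, was the regulator nearest the control in the mean of the COLCA2 guides, with ratios of -0.13, -0.12 and -0.11 for gRNA 1, gRNA 2 and POU2F3 gRNA.

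The retention proteins INSIG1 and INSIG2 lay on opposite sides of the control. INSIG1 had a normalized count of 2682 in the control, 1875 in the POU2F3 library, and 1592 and 1519 with COLCA2 gRNA 1 and 2. Every edited library was well below the control, at a ratio of -0.52 in the POU2F3 library and -0.79 ± 0.048 with the COLCA2 guides (SD, n = 2). INSIG2, its paralog, had counts of 480, 598, 506 and 699. Its COLCA2 guides disagreed, at 0.075 and 0.54, so that its mean ratio of 0.31 ± 0.33 (SD, n = 2) was within their spread. The count of INSIG1 was 5.58 times that of INSIG2 in the non-targeting library and 2.18 to 3.15 times it in the other 3.

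**Figure D3:**
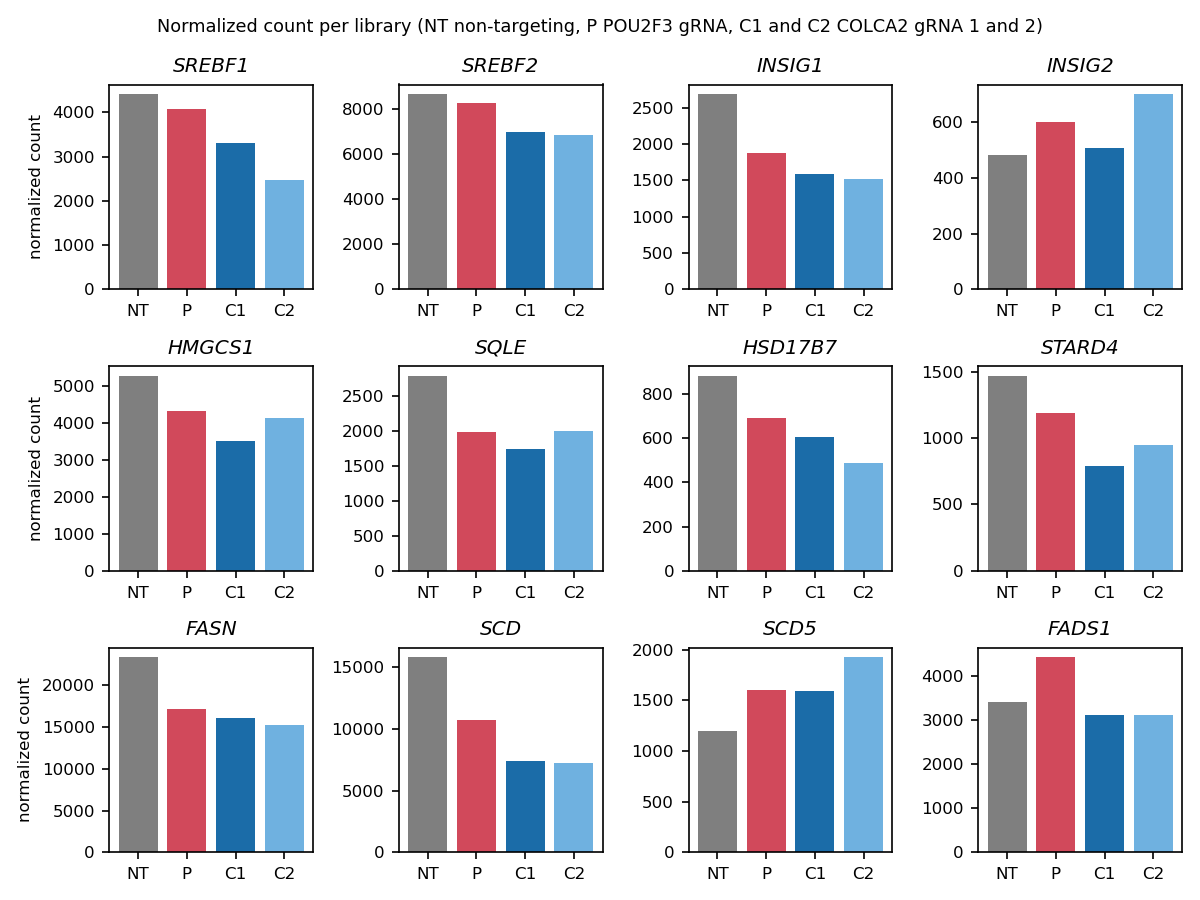
Normalized count per library for 12 members; grey bars are the non-targeting library, red POU2F3 gRNA, dark and light blue COLCA2 gRNA 1 and 2, 1 library per bar, each panel with its own axis from 0. SCD steps from 15816 to 10714 and then 7431 and 7282, while SCD5 and INSIG2 are lowest in the non-targeting library and FADS1 is highest in the POU2F3 library.

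All 7 mevalonate steps, which turn acetyl-CoA into farnesyl diphosphate, were below the control in all 3 libraries. Their median ratio was -0.26 with COLCA2 gRNA and -0.28 in the POU2F3 library. HMGCS1, the synthase that joins acetyl-CoA to acetoacetyl-CoA, was lowest with gRNA 1. Its counts were 5290 in the control, 4348 in the POU2F3 library, and 3511 and 4153 with gRNA 1 and 2. FDPS, which makes farnesyl diphosphate, was the most even, with 8399, 7050, 7072 and 6962 in the same order. Its 3 edited libraries could hardly be told apart, at ratios of -0.25, -0.25 and -0.27 in the POU2F3 library, gRNA 1 and gRNA 2.

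The mevalonate decarboxylase MVD had ratios of -0.38 and -0.48 with the COLCA2 guides and -0.19 in the POU2F3 library, and the isomerase IDI1 -0.42, -0.21 and -0.31. For the thiolase ACAT2 and the kinases MVK and PMVK the POU2F3 gRNA library was the lowest, with ratios of -0.21, -0.31 and -0.28, while the mean ratios with COLCA2 gRNA were -0.16, -0.20 and -0.079. The latter of PMVK was smaller than the SD of 0.094 between its guides.

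The 11 sterol steps, from farnesyl diphosphate to cholesterol, were mixed: 6 were lower in all 3 libraries, 3 were higher in all 3, and TM7SF2 and DHCR7 had guides on both sides of 0. Squalene epoxidase (SQLE), a rate-limiting oxygenase, had a count of 2783 in the control, 1981 in the POU2F3 library, and 1741 and 2002 with COLCA2 gRNA 1 and 2. All 3 edited libraries were of like level, and the ratio in the POU2F3 library, -0.49, lay within the range of the guides. HSD17B7, a sterol ketoreductase, had 882, 691, 603 and 486. Its guides averaged -0.70 ± 0.22 on the log2 scale (SD, n = 2), and the POU2F3 library was at -0.35. In the mean of the guides it was the lowest of the sterol steps, while with gRNA 1 SQLE was lower, at -0.68 against -0.55. Its values are uncertain to the extent that reads are shared with the annotated pseudogenes HSD17B7P1 and HSD17B7P2.

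Squalene synthase FDFT1 averaged -0.44 ± 0.032 over the guides (SD, n = 2), with -0.25 in the POU2F3 library, and the lanosterol synthase LSS -0.25 ± 0.015 (SD, n = 2) and -0.15. MSMO1 and NSDHL, which work together in removing the sterol methyl groups, had mean ratios of -0.19 ± 0.12 and -0.16 ± 0.090 with the guides (SD, n = 2), and -0.31 and -0.21 in the POU2F3 library.

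The steps on the other side were CYP51A1, EBP and SC5D. The lanosterol demethylase CYP51A1 had 2780 in the control, 3136 in the POU2F3 library, and 2966 and 3295 with the guides, so it was slightly higher in all 3. SC5D, the sterol desaturase, had 769, 943, 811 and 1157. Its guides differed by more than those of any other member past the minimum, with a mean ratio of 0.33 ± 0.36 (SD, n = 2). The sterol isomerase EBP had ratios of 0.27 and 0.15 with the guides and 0.032 in the POU2F3 library, and with libraries scaled to equal totals the last became -0.0017. DHCR7, a late sterol reductase, had 3329, 3366, 3497 and 3196, a spread that gives it no direction.

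STARD4, a soluble protein that moves sterol between membranes and is a known SREBP target, was among the members furthest below the control with COLCA2 gRNA. Its normalized count was 1469 in the control, 1190 in the POU2F3 library, and 787 and 949 with COLCA2 gRNA 1 and 2. Both guides lay below the POU2F3 library, which lay below the control, an order shown by 14.2% of all genes. The mean ratio of STARD4 was -0.76 ± 0.19 with the guides (SD, n = 2), beside -0.30 for POU2F3 gRNA.

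The 4 fatty acid synthesis genes were all lower in all 3 libraries. FASN, the synthase that builds palmitate, had the largest count of the members: 23292 in the control, 17175 in the POU2F3 library, and 15984 and 15212 with COLCA2 gRNA 1 and 2. The POU2F3 gRNA library held 73.7% of the control level, 72.4% to 75.1% by the exact Clopper-Pearson method at 95% confidence, and the guides held 68.6% and 65.3%. Such intervals cover counting error only, since reads are not independent molecules. ACLY, which supplies cytosolic acetyl-CoA from citrate, had counts of 10369, 8663, 8224 and 8177. Its ratios were -0.26 in the POU2F3 library and -0.34 ± 0.0058 with the guides (SD, n = 2), so the guides hardly differed. Of the acetyl-CoA carboxylases, which make malonyl-CoA, ACACA had 4259, 3307, 3679 and 3092, and its guides differed, at -0.34 ± 0.18 (SD, n = 2), around the POU2F3 gRNA ratio of -0.36. ACACB had 774, 697, 631 and 628, or -0.15 in the POU2F3 library and -0.30 ± 0.0055 with the guides (SD, n = 2). The count of ACACA was 4.75 to 5.83 times that of ACACB in every library.

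The largest difference of any member past the minimum was that of SCD, the desaturase that makes oleate from stearate. Its normalized count was 15816 in the control, 10714 in the POU2F3 library, and 7431 and 7282 with COLCA2 gRNA 1 and 2. POU2F3 gRNA lay between the control and the guides, which were nearly equal. The mean ratio was -1.10 ± 0.021 with the guides (SD, n = 2) and -0.56 in the POU2F3 library. This left 47.0% and 46.0% of the control level with the guides, and 67.7% in the POU2F3 library (exact interval 66.2% to 69.3%). Per kb of its longest annotated transcript SCD had rank 2 of the 35 members in the control, with 2950, rank 4 in the POU2F3 library, with 1998, and rank 7 with each COLCA2 guide, with 1386 and 1358. FDPS had rank 1 in every library on this scale, with 3452 to 4164.

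SCD5, the paralog of SCD, went the other way. Its counts were 1199 in the control, 1600 in the POU2F3 library, and 1589 and 1926 with the guides. It was higher in all 3, with a mean ratio of 0.54 ± 0.20 with the guides (SD, n = 2) and 0.42 in the POU2F3 library, the highest of any member in each comparison. The count of SCD was 13.2 times that of SCD5 in the control, 6.70 times in the POU2F3 library, and 4.68 and 3.78 times with gRNA 1 and 2.

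The neighbouring desaturases FADS1 and FADS2, which act on polyunsaturated fatty acids, were higher in the POU2F3 library than with either COLCA2 guide, by less than 1.5-fold. FADS1 had 3417 in the control, 4430 in the POU2F3 library, and 3113 and 3122 with COLCA2 gRNA 1 and 2. It was higher in the POU2F3 library, at a ratio of 0.37, and slightly lower with the guides, at -0.13 ± 0.0030 (SD, n = 2). FADS2 had 14491, 13199, 10945 and 10849, lower in all 3, at -0.13 in the POU2F3 library and -0.41 ± 0.0090 with the guides (SD, n = 2). Both genes lie on chromosome 11 (GENCODE release 29, GRCh38), FADS1 on the minus strand at 61799625 to 61829318 and FADS2 on the plus strand at 61792980 to 61867354. Their annotated exons overlap by up to 165 bases, and strand use in the counting is not given. The elongase ELOVL6, which lengthens palmitate, had ratios of -0.41 and -0.28 with the guides and -0.32 in the POU2F3 library.

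Of the exporters, ABCG1 had 205 in the control, 160 in the POU2F3 library, and 145 and 131 with the guides. These are ratios of -0.35 in the POU2F3 library and -0.57 ± 0.11 with the guides (SD, n = 2). ABCA1 had 6 reads in the control, 5 in the POU2F3 library, and 3 and 1 with the guides, at which depth no difference was detectable.

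The POU2F3 and COLCA2 libraries were also set against each other, without the control. The POU2F3 gRNA library was above both COLCA2 guides for 17 of 34 members (50%), against 35.6% of all genes, and below both for 5 (14.7%), against 38.9%. The median difference over the members was 0.053, against -0.0039 over all genes. From gRNA 2 alone it was 0.070, from gRNA 1 alone 0.11, and the mean over members was 0.11, so its size depended on guide and summary. By role it was 0.26 for the SREBP regulators and 0.28 for desaturation and elongation, 0.11 for fatty acid synthesis, and 0.0068 and 0.0043 for the mevalonate and sterol steps. No member was 1.5-fold above or below both guides, against 1.92% and 2.5% of all genes. The largest mean differences were those of SCD, at 0.54, of SREBF1 and FADS1, each at 0.51, and of STARD4, at 0.46. For SREBF1 the difference was 0.30 from gRNA 1 and 0.72 from gRNA 2, and for STARD4 it was 0.60 and 0.33, so both differed by guide. SCD and FADS1 differed alike from both guides, by 0.53 and 0.56 and by 0.51 and 0.51.

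In 16 members (47.1%) the POU2F3 gRNA library lay below the control and above both guides, against 14.2% of all genes. The 5 members below both guides were ACAT2, MVK, PMVK, MSMO1 and EBP, none of them by more than 0.20 in the mean. Guides differed among themselves as much as for other genes: the median SD between them was 0.088 over the members and 0.092 over all genes. SC5D, INSIG2 and SREBF1 had the largest, at 0.36, 0.33 and 0.30.

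**Figure D4:**
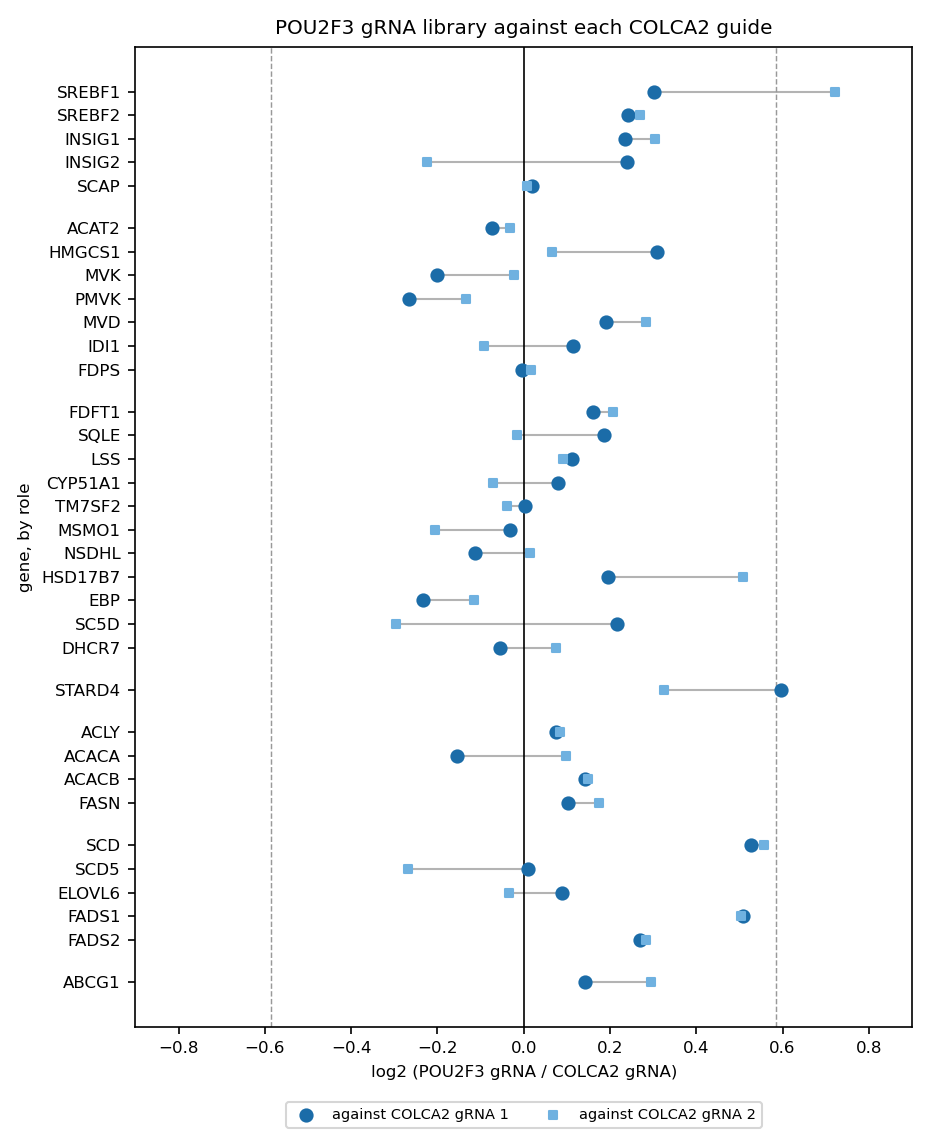
Log2 ratio of the POU2F3 gRNA library to COLCA2 gRNA 1 (circles) and gRNA 2 (squares) for the 34 members past the minimum, grey lines joining both; dashed lines mark 1.5-fold. In 17 rows both marks lie right of 0 and in 5 left of it, and no row has both marks beyond a dashed line.

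A second list of 74 lipid genes outside the members, also chosen with earlier results known, was examined in the same libraries. Of these genes, 73 were in the tables and 69 passed the minimum. The list lay on the other side of the control. Its median ratio was 0.18 with COLCA2 gRNA and 0.11 in the POU2F3 library, with 41 of 69 (59.4%) higher and 12 (17.4%) lower in all 3 libraries, beside 34.4% and 35.3% of all genes. No gene of this list was 2-fold lower in the POU2F3 library or with both guides, and 8 (11.6%) and 5 (7.25%) were 2-fold higher, beside 6.73% and 5.79% of all genes, so the share with both guides was near that of all genes. Those 2-fold higher in all 3 libraries were MYLIP, NCEH1, ELOVL3, HACD1 and ACSL5.

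MYLIP, an LXR target that marks lipoprotein receptors for degradation, had a count of 181 in the control, 498 in the POU2F3 library, and 523 and 641 with COLCA2 gRNA 1 and 2. NCEH1, a cholesterol ester hydrolase, had 115, 346, 457 and 516. HACD1, a dehydratase of the elongation cycle, had 161, 365, 326 and 407. These 3 genes were separated from the control in every edited library. ELOVL3 and ACSL5 had only 15 and 5 reads in the non-targeting library, and 33 to 52 and 18 to 33 in the others.

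By role, fatty acid oxidation genes had medians of 0.21 and 0.29 with COLCA2 gRNA 1 and 2 and 0.34 in the POU2F3 library, and 6 of 9 were higher in all 3 libraries. The beta subunit of the mitochondrial trifunctional protein, HADHB, had 1072 in the control, 1680 in the POU2F3 library, and 1843 and 1878 with the guides. Sterol uptake, storage and trafficking genes had a median of 0.34 in the POU2F3 library and of 0.23 and 0.12 with gRNA 1 and 2, with 9 of 13 higher in all 3. SREBP processing and degradation genes had 0.090, 0.13 and 0.29 in that order, with 5 of 7 higher. The elongation cycle (7 of 9), LXR receptors and targets (3 of 5) and the isoprenoid branch with electron donors (5 of 10) had 1 gene each lower in all 3. The remaining roles did not share this direction: acyl-CoA activation and triglyceride synthesis had medians of -0.036 in the POU2F3 library and -0.079 over the means of the guides, with 4 of 12 higher and 5 lower, and acetyl-CoA and NADPH supply had -0.11 and 0.015, with 2 of 4 higher and 2 lower. Among acyl-CoA synthetases, ACSL1 and ACSL3 lay opposite to ACSL5. ACSL1 had 6585 in the control, 3686 in the POU2F3 library, and 3670 and 3538 with the guides, and ACSL3 had 2611, 1685, 1847 and 1973. Both were lower in every edited library, as most synthesis genes were.

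**Figure D5:**
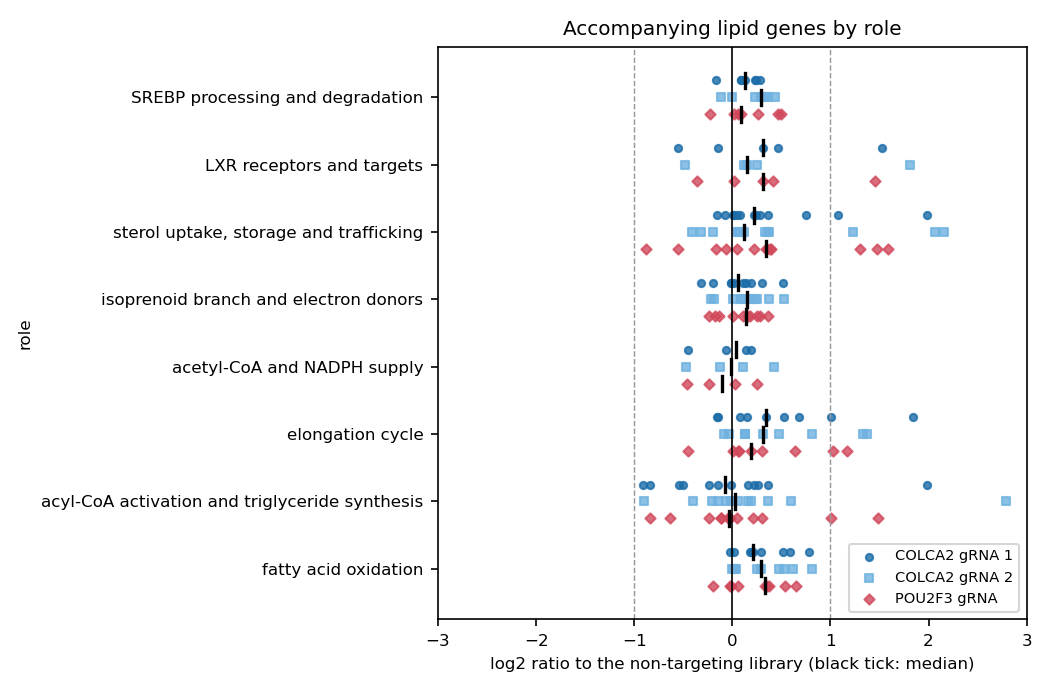
Log2 ratio to the non-targeting library for 69 lipid genes outside the members, in rows by role, with circles and squares for COLCA2 gRNA 1 and 2, diamonds for POU2F3 gRNA and black ticks for each library's median. The medians with gRNA 1, gRNA 2 and POU2F3 gRNA lie right of 0 for fatty acid oxidation (0.21, 0.29 and 0.34) and for sterol uptake, storage and trafficking (0.23, 0.12 and 0.34).

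Some levels carry limits of annotation. FDFT1, LSS and ACACA each have 2 rows, which were summed, and 1 identifier of each is not in the GENCODE primary assembly annotation. For FDFT1 that identifier holds most of the count, with 4723 in the control, 3811 in the POU2F3 library, and 3370 and 3339 with gRNA 1 and 2. The annotated FDFT1 row had 298, 398, 394 and 309, higher in all 3 but barely so with gRNA 2. The lower summed level of FDFT1 thus comes from the other row, and its edgeR call was made on the sum. How reads were divided between the identifiers of a symbol is not given, so the rows may not be separate measurements. For ACACA the identifier outside the annotation likewise held most, with 4080, 3040, 3593 and 2957, against 179, 267, 86.1 and 135 in the annotated row. Exons of 14 members overlap an exon on the other strand, and for ACAT2, MVK, SREBF1, FADS1 and FADS2 the partner is a protein-coding gene. Pseudogenes named after them are annotated for CYP51A1, FADS2, FDPS, HSD17B7 and SCD, 15 in all.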

How the data were processed

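Poly(A) RNA of 4 NCI-H1048 libraries was sequenced. Salmon and DESeq2 and the build hg38 are named in the submitters' processing notes, without roles. Per the file headers, the authors deposited normalized counts per gene, a linear signal. In each library 100% of values were whole multiples of 1 step (tolerance 0.01 reads), so reads were recovered by division. The factors, 0.850 to 1.19, were those that DESeq2's median of ratios gives on the recovered reads. Strand use and annotation are not given in the sources used here.

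Rows of a symbol were summed, a mean of at least 20 was required, and ratios used a pseudocount of 1. Named are members 1.5-fold apart in 1 direction in all 3 libraries or between POU2F3 gRNA and both COLCA2 guides (none met either), paralog pairs, and accompanying genes 2-fold apart in all 3 libraries. The rest were to be given by role and range; HMGCS1, FDPS, SQLE, HSD17B7, CYP51A1, SC5D, DHCR7, STARD4, FASN and ACLY, and HADHB, ACSL1 and ACSL3, were chosen after their values were seen, as were the counts of members lower in all 3 libraries. Members and lists were chosen with earlier results of these data known.

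The count tests were edgeR 4.0.16 (TMM, 3 groups) and DESeq2 1.42.0, run in R 4.3.3. The edgeR test was also run on simulated counts with changes of at least 2-fold, alike in all 3 edited libraries. That run does not bear on calls of smaller differences. Promoters come from RefSeq (GRCh38.p14), and transcript lengths from GENCODE release 29. Alternatives varied scaling, pseudocount, minimum, threshold, row choice and guide.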

Additional observations from a re-analysis of the deposited data

Results flagged for a closer look

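FADS1 was the 1 member whose COLCA2 guides both lay on 1 side of the control and whose POU2F3 gRNA library lay on the other. Its log2 ratio with POU2F3 gRNA exceeded the mean of the COLCA2 guides by 0.51. The difference between the POU2F3 library and the COLCA2 guides was not tested here.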

How the results depend on the processing

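No paired analysis was possible because the POU2F3 and control groups hold a lone library without a number. The count tests changed the number of members called. For POU2F3 gRNA the 0 members 2-fold lower became 3 by edgeR and 2 by DESeq2. With both COLCA2 guides the 1 member 2-fold lower became 3 at 1.5-fold, 12 by edgeR and 10 by DESeq2, and the 0 higher became 1 by edgeR and 1 by DESeq2. By construction, these tests ask for a difference beyond the modelled spread and not for 2-fold.

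No median changed sign, but most shifted beyond the spread of the guide medians (SD 0.0010 for the ratios), which were nearly equal. The median in the POU2F3 library (-0.233) was -0.2218 with TMM, -0.2674 at equal totals, -0.2296 with all genes centred at 0, -0.2319 with a pseudocount of 10, -0.2526 without a minimum and -0.1674 as a mean over members. The COLCA2 median (-0.308) was -0.3773 at equal totals, -0.3048 centred, -0.3057 with a pseudocount of 10, -0.3183 without a minimum, -0.2766 as a mean, and -0.2873 to -0.2858 leaving out a guide. Their difference (0.053, SD between guides 0.031) was 0.0883 at equal totals, 0.1092 as a mean, 0.0703 without gRNA 1 and 0.114 without gRNA 2. Scaling to equal totals moved the median of all genes to -0.079, -0.065 and -0.038 with gRNA 1, gRNA 2 and POU2F3 gRNA, and then 28 members were lower in all 3 libraries, against 41.9% of all genes. That scaling turned the sign of TM7SF2, EBP or DHCR7 in at least 1 library, and TMM that of TM7SF2 with POU2F3 gRNA. Leaving out any 1 of the edited libraries, an alternative added after seeing the data, gave 26 or 27 members lower in the others.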
